A study of Homo sapiens with 9 samples.

Results

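ITPRID2 promoter contacts were followed over the megabase around the gene, in 9 Capture-C libraries of HCT-116 MED14-dTAG cells. The viewpoint is 1 of 20 promoters captured in the study, and its members here are the DpnII fragments on chromosome 2 whose midpoint lies within 500 kb of the ITPRID2 start, 2153 of the 214224 fragments listed on that chromosome. ITPRID2 (ENSG00000138434.17) lies on the plus strand of chr2:181891730-181930738 in hg38, and the start of the antisense lncRNA ITPRID2-DT lies 0.067 kb upstream of it. The cells derive from HCT-116, a long-established line of human colorectal carcinoma, and their Mediator subunit MED14 carries a degradation tag. The 3 groups are dTAG+I-BET (dTAG ligand at 0.5 µM for 2 h with the BET inhibitor I-BET at 1 µM for 90 min), dTAG (dTAG ligand alone, 0.5 µM for 2 h) and DMSO (vehicle), with 3 libraries each. The methods describe biological replicates and the column names carry an unexplained TR before the replicate number, so n = 3 and the p-values rest on the methods. All 9 libraries, controls included, carry the tagged MED14 allele. No group received I-BET alone, so an effect of the inhibitor can be read only on top of MED14 depletion, and untagged cells treated with the ligand were not analysed here.

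Mediator is the large complex that relays signals from enhancer-bound transcription factors to RNA polymerase II, and MED14 is the backbone subunit that holds its modules together. BET proteins read acetylated histones at enhancers and promoters, and I-BET displaces them. Cohesin extrudes chromatin loops and is also found at active enhancers. ITPRID2, formerly SSFA2 or KRAP, encodes an actin-associated protein that tethers IP3 receptors, the calcium release channels of the endoplasmic reticulum. In Capture-C, chromatin is cut with DpnII and religated, and the ligation partners of a captured promoter fragment are counted as its contacts. The study chose its 20 promoters for activity in HCT-116 cells, loss of expression after Mediator depletion, Mediator occupancy and a nearby super-enhancer, so ITPRID2 is not a random gene.

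Sequences of the promoter and of sites inside the measured windows are shown first, read from hg38 on the plus strand. No regional value was computed from these bases. The promoter sequence is the 250 bases before the ITPRID2 start (chr2:181891480-181891729, RefSeq promoter table, GRCh38.p14). The others are the middle 200 bases of 4 of the sites that lost cohesin after dTAG treatment in the study's own site list. These 4 of the 5 sites with a searched motif were chosen for where they lie. Of them, 2 lie in the upstream peak of contacts (chr2:181784660-181784859 and chr2:181791391-181791590) and 1 close to the promoter (chr2:181876733-181876932). The last lies in the downstream window whose contacts were called higher in dTAG+I-BET cells (chr2:181949214-181949413). Capitals mark GGGCGG, the GC box bound by SP factors, in the promoter, CTTTGAN, the TCF/LEF core, in the first site, and TGANTCA, the AP-1 motif, in the other 3, each on either strand.
ITPRID2 promoter: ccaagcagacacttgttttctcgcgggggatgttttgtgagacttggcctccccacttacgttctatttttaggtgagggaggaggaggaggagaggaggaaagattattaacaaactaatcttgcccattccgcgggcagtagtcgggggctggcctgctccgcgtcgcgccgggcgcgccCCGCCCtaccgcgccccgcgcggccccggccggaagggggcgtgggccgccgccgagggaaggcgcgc
cohesin-lost site, 107.0 kb upstream: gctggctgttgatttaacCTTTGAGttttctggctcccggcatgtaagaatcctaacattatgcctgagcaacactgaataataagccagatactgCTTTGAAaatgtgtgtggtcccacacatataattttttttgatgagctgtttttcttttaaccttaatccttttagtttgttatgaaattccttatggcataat
cohesin-lost site, 100.2 kb upstream: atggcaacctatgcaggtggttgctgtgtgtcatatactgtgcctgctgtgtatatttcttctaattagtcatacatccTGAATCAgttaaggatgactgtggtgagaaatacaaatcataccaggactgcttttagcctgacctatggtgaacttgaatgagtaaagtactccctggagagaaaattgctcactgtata
cohesin-lost site, 14.9 kb upstream: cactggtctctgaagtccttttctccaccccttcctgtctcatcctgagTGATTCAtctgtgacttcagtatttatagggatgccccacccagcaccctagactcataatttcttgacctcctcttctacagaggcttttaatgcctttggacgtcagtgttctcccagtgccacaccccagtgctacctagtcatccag
cohesin-lost site, 57.6 kb downstream: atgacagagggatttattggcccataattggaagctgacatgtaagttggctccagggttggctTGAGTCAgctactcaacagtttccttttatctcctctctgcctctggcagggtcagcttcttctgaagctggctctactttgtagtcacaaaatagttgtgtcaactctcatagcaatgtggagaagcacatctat

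The study's list held 8 cohesin-lost sites of 400 bases within 500 kb of the ITPRID2 start, out of 881 genome-wide. They lie 149.8, 108.9, 107.0, 100.2, 77.4 and 14.9 kb upstream and 0.6 and 57.6 kb downstream of the start. By GENCODE the 7 outside the promoter region lie in no annotated gene, and the one at 0.6 kb overlaps an ITPRID2 exon. TGANTCA was found in 3 of the 8 sites (37.5%), against 63.8% of all 881, and CTTTGAN in 2 of 8 (25%), against 32.2% of all. GGGCGG and the CTCF core were found in none of the 8, against 10.6% and 0.227% of all. The promoter held GGGCGG once, which 45.0% of 35116 promoters of 300 bases also hold, and neither TGANTCA (7.71% of promoters) nor CTTTGAN (12.8%). These motifs were searched on both strands and matches are descriptions only.

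ITPRID2 recovered 33872 to 56807 interactions on chromosome 2 per library (median 37595), of which 12608 to 28395 lay within 500 kb. Over all 20 viewpoints the corresponding number on the viewpoint's own chromosome ran from 10698 to 60241. The deposited signal is scaled so that each library sums to about the same total on chromosome 2 (952887 to 961629), and it is given below per kilobase. Since the totals are fixed, a gain in 1 place is balanced by a loss elsewhere, including outside the megabase. The library dTAG replicate 3 stood apart: 36.2% of its chromosome 2 signal lay within 500 kb, against 45.3 to 52.4% in the other 8 libraries, so results that involve dTAG are given with and without it. Fragments within 10 kb of the start were left out of all regional values.

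ITPRID2 contacts exceeded those of the other promoters mainly upstream. Between 10 and 200 kb, 15 of 19 upstream bins lay above the mean of the other viewpoints (median 0.48 on the log2 scale), and 5 of 19 downstream bins did (median -0.08). In the 9 libraries the mean signal was 1607 per kb in the 10-kb bin from 100 to 110 kb upstream (1118 to 2069 over libraries), where the other 19 viewpoints averaged 616 per kb at the same distance. That bin was the highest of the upstream side relative to the other viewpoints, by 1.37 ± 0.10 on the log2 scale (SD, n = 9), followed by the bins from 140 to 150 kb (1.31 ± 0.08) and from 130 to 140 kb (1.23 ± 0.10). The first of these bins holds the cohesin-lost sites at 108.9, 107.0 and 100.2 kb, and the second the site at 149.8 kb.

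ITPRID2 ranked first of the 20 viewpoints in 5 of the 19 upstream bins between 10 and 200 kb and in none of the 19 downstream ones. Downstream the largest excesses were small, 0.28 ± 0.17 from 170 to 180 kb, 0.28 ± 0.14 from 180 to 190 kb and 0.21 ± 0.16 from 60 to 70 kb (log2, SD, n = 9). Beyond 200 kb the profile fell under that of the other promoters in all 30 bins on either side, with a median of -1.06 upstream and -1.97 downstream on the log2 scale. The upstream edge was steep: the mean signal was 452 per kb from 170 to 180 kb, 264 per kb from 180 to 190 kb and 203 per kb from 190 to 200 kb. Set over the mean of all viewpoints, the profile of ITPRID2 was most like those of KRT80 and ANGPT2 (Pearson r 0.68 each over 98 bins) and ERRFI1 (0.41), a description over bins that share libraries and the distance decay.

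**Figure D1:**
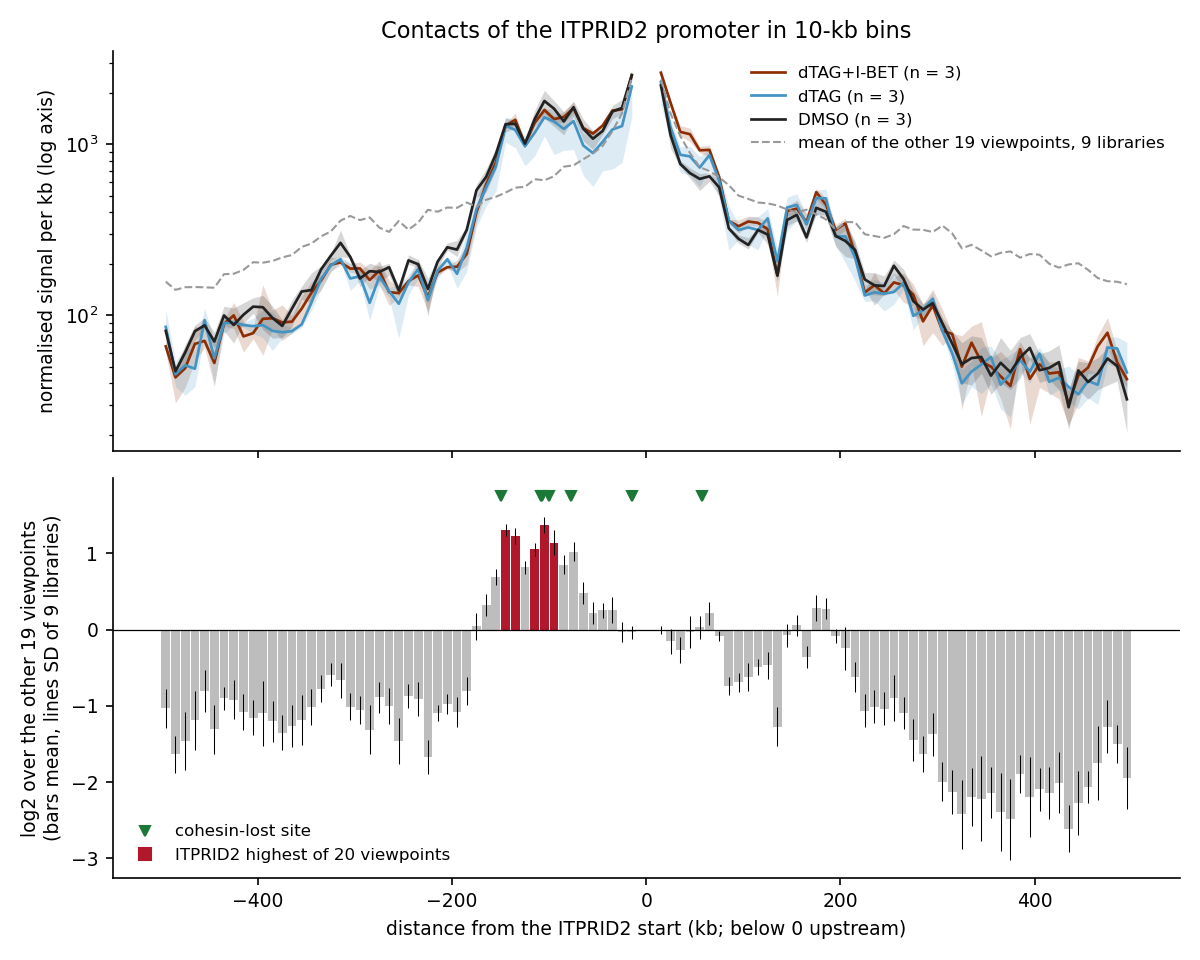
Upper panel: normalised signal per kb (log axis) of the ITPRID2 promoter in 10-kb bins against the distance from the ITPRID2 start, as the mean (line) and range (shading) of 3 libraries per group, with the mean of the other 19 viewpoints dashed. Lower panel: log2 of ITPRID2 over the other 19 viewpoints at the same distance (bars, mean of 9 libraries, lines SD), in which 5 upstream bins are the highest of all 20 viewpoints and every bin beyond 200 kb is below 0; triangles mark cohesin-lost sites.

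After treatment the balance between the sides shifted toward the downstream side. Between 10 and 200 kb, the upstream signal was 1.72, 1.65 and 1.66 times the downstream signal in dTAG+I-BET libraries and 1.76, 1.70 and 1.49 times in dTAG libraries, against 2.40, 2.23 and 2.08 times in DMSO libraries. Every treated library lay below every DMSO library, and the 2 treated groups overlapped. On the log2 scale the ratio was 0.72 ± 0.13 in dTAG cells and 1.16 ± 0.10 in DMSO cells (SD, n = 3 each), a difference of -0.44 (SE 0.08, limma adjusted p = 0.00125). In dTAG+I-BET cells it was 0.74 ± 0.03, a difference from DMSO of -0.41 (SE 0.08, limma adjusted p = 0.00119). Without dTAG replicate 3 the difference between dTAG and DMSO was -0.37 (limma adjusted p = 0.00239, with 0.000175 to 0.00893 over all alternatives run). The exact two-sided permutation test gave p = 0.1 for both, the smallest that 3 against 3 libraries allow.

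The 2 sides moved unequally. Upstream, signal per kb was 1164, 1198 and 1214 in dTAG+I-BET libraries and 1222, 1164 and 734 in dTAG libraries, against 1334, 1261 and 1087 in DMSO libraries. Of the dTAG libraries only replicate 3 lay below all DMSO libraries. Downstream it was 678, 726 and 733 per kb in dTAG+I-BET libraries and 695, 683 and 494 in dTAG libraries, against 556, 566 and 522 in DMSO libraries. All dTAG+I-BET libraries and dTAG replicates 1 and 2 lay above all DMSO libraries, and dTAG replicate 3 lay below them. The mean downstream signal was 29.9% above that of DMSO cells in dTAG+I-BET cells and 13.8% above it in dTAG cells (25.7% without replicate 3). The mean upstream signal stood at 0.971 times the DMSO mean in dTAG+I-BET cells and at 0.847 times in dTAG cells (0.972 times without replicate 3), with overlapping groups.

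ITPRID2 was not alone in this shift. A ratio within a library does not depend on how the library was scaled. The ratio differed in dTAG from DMSO cells at 11 of 20 viewpoints (55%), lower in all 11, and in dTAG+I-BET from DMSO cells at 14 of 20 (70%), lower in 13 (65%), by the same limma test. In DMSO cells ITPRID2 had the third highest ratio of the 20, after HMGA2 and ERRFI1. Its change was the fourth most negative in both comparisons. HMGA2 (-1.10), MTAP (-0.66) and DCBLD2 (-0.50) were lower in dTAG against DMSO cells. Over the 9 libraries the ratio of ITPRID2 followed most closely those of KITLG (Pearson r 0.98), HMGA2 (0.98) and DCBLD2 (0.92), a description over libraries that carry all 20 viewpoints.

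The ratio of ITPRID2 minus the mean of the other 19 was 0.70, 0.67 and 0.67 in dTAG+I-BET libraries and 0.74, 0.70 and 0.54 in dTAG libraries, against 0.88, 0.84 and 0.80 in DMSO libraries (log2). No treated library reached the lowest DMSO library. The mean difference from DMSO was -0.16 in dTAG+I-BET and -0.18 in dTAG cells (exact permutation p = 0.1 each, the smallest possible). The other 19 viewpoints themselves moved by -0.25 and -0.26 on average, so that ITPRID2 moved further than their mean. The size of this excess depended on the setting. Over all alternatives run it was -0.21 to -0.064 for dTAG+I-BET and -0.23 to -0.11 for dTAG (exact permutation p 0.1 to 0.2).

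**Figure D2:**
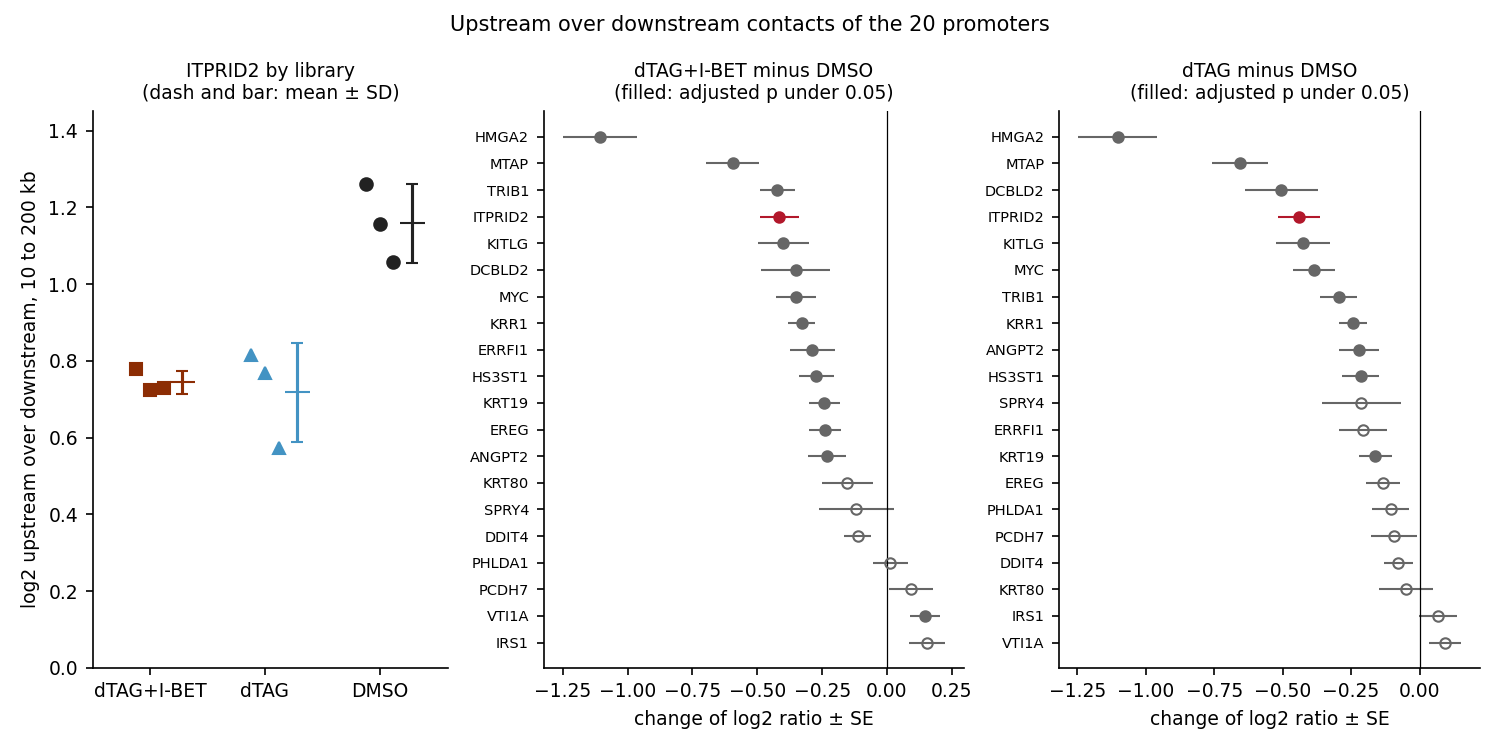
Left: log2 of upstream over downstream signal between 10 and 200 kb of the ITPRID2 start in each library, with the mean and SD of each group (n = 3), where all 6 treated libraries lie below the 3 DMSO libraries. Middle and right: the change of this ratio (± SE) for dTAG+I-BET minus DMSO and for dTAG minus DMSO at all 20 viewpoints, filled where the limma adjusted p is under 0.05, with ITPRID2 in red at -0.41 and -0.44.

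The shift was seen in each distance band out to 200 kb, in a breakdown chosen once the data were known. Between 10 and 50 kb the log2 ratio of upstream over downstream was 0.06 ± 0.05 in dTAG+I-BET cells and 0.07 ± 0.22 in dTAG cells, against 0.53 ± 0.07 in DMSO cells (SD, n = 3 each). The libraries stood at 0.11, 0.07 and 0.0056 in dTAG+I-BET and at 0.18, 0.22 and -0.17 in dTAG, against 0.58, 0.46 and 0.56 in DMSO, so that the treated groups overlapped each other and not DMSO. Between 50 and 100 kb it was 1.11 ± 0.05 in dTAG+I-BET cells and 0.99 ± 0.18 in dTAG cells, against 1.50 ± 0.11 in DMSO cells. Between 100 and 200 kb it was 1.27 ± 0.04 in dTAG+I-BET cells and 1.15 ± 0.10 in dTAG cells, against 1.56 ± 0.21 in DMSO cells. The limma adjusted p over the 80 bands of all viewpoints was 0.00431, 0.0082 and 0.0359 for dTAG+I-BET and 0.00535, 0.00211 and 0.0103 for dTAG. The calls up to 100 kb held without any single library. From 100 to 200 kb the dTAG+I-BET call was lost without any single dTAG+I-BET library and without DMSO replicate 1 or 2, and the dTAG call without DMSO replicate 1.

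From 200 to 500 kb the difference was -0.21 in dTAG+I-BET against DMSO cells (SE 0.08, limma adjusted p = 0.044) and -0.14 in dTAG against DMSO cells (SE 0.08, limma adjusted p = 0.153). The first of these calls was lost without any single dTAG+I-BET library, without replicate 1 or 2 of the DMSO or dTAG libraries and with the replicate number as a block. Of all 80 bands, 48.8% passed in dTAG+I-BET against DMSO (43.8% as lower) and 32.5% in dTAG against DMSO (31.2% as lower).

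**Figure D3:**
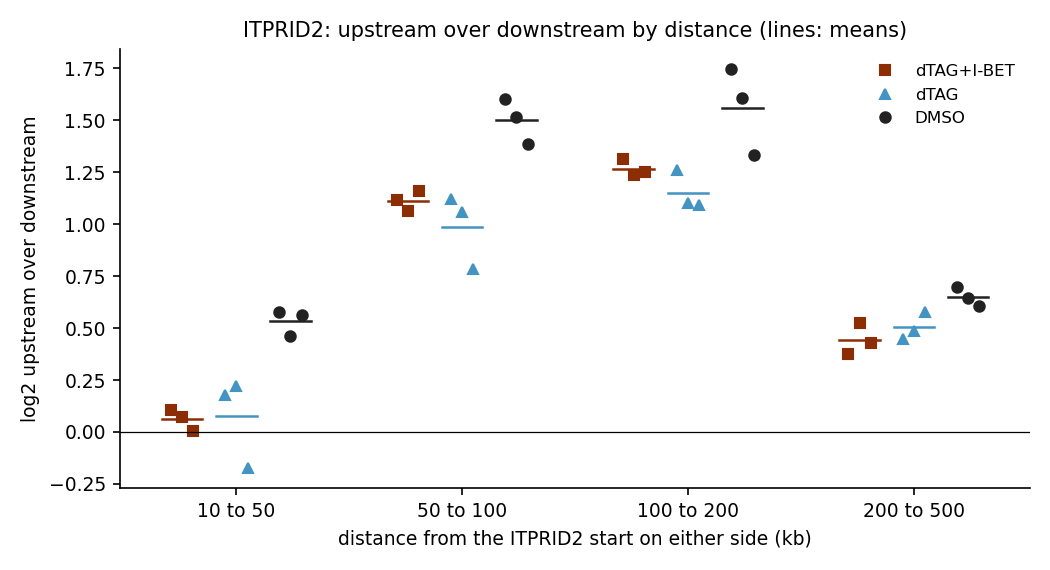
Log2 of upstream over downstream signal of ITPRID2 in 4 distance bands, one point per library and lines for the group means (n = 3). In every band up to 200 kb the dTAG+I-BET and dTAG libraries lie below all DMSO libraries, and from 10 to 50 kb they lie around 0.

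Bin by bin, few changes at ITPRID2 passed for dTAG alone, and in limma on the deposited signal of all 9 libraries none did. Of its 98 bins of 10 kb, 0 passed an adjusted p of 0.05 in limma for dTAG against DMSO, where 1.48% of the 1960 bins of all viewpoints passed (0.357% as lower and 1.12% as higher). An unadjusted limma p under 0.05 was found in 10 of the 98 bins and in 260 of the 1960. edgeR and DESeq2 on the recovered interactions called 2 each, the bins from 40 to 50 and from 60 to 70 kb downstream, both higher, and so did limma without dTAG replicate 3 or on signal rescaled to the total from 10 to 1000 kb. Of the 1960 bins of all viewpoints these settings called 111, 65, 83 and 84, in that order. The direction differed by side: 45 of 49 upstream bins were below 0 (77.8% over all viewpoints), with a median log2 ratio of -0.27, and 23 of 49 downstream bins (42.7% over all viewpoints), with a median of 0.04. Between 10 and 200 kb, 19 of 19 upstream bins were below 0 (92.4% over all viewpoints) and 17 of 19 downstream bins above 0 (54.7% over all viewpoints). All dTAG libraries were below all DMSO libraries in 11 of the 98 bins and above them in 2, where the shares over all viewpoints were 10.1% and 6.28%. Without dTAG replicate 3 the counts between 10 and 200 kb were 12 upstream bins below 0 and 19 downstream bins above it (60.3% and 82.6% over all viewpoints), so that the upstream count rested in part on that library and the downstream one did not.

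The lowest of these ratios were far from the promoter, where counts are small. From 460 to 470 kb upstream the signal was 45.2, 62.5 and 38.3 per kb in dTAG libraries, against 83.3, 87.5 and 71.1 in DMSO libraries, a log2 ratio of -0.74 (SE 0.30, limma adjusted p = 0.248). From 280 to 290 kb upstream it was 93.2, 154 and 107 in dTAG libraries, against 202, 172 and 169.6 in DMSO libraries (log2 ratio -0.64, SE 0.22, limma adjusted p = 0.154). The groups did not overlap in either bin, and neither passed the test. The highest ratios lay downstream. From 60 to 70 kb the signal was 949, 913 and 732 per kb in dTAG libraries, against 683, 659.5 and 607 in DMSO libraries (log2 ratio 0.40, SE 0.15, limma adjusted p = 0.211), also without overlap. From 490 to 500 kb it was 33.9, 69.4 and 35.5 in dTAG libraries, against 32.2, 43.7 and 20.6 in DMSO libraries, and the groups overlapped (log2 ratio 0.49, SE 0.40, limma adjusted p = 0.633).

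In dTAG+I-BET cells, the bins called higher at ITPRID2 lay at the end of the gene and just past it. Such calls were about as frequent over all viewpoints. Between 10 and 200 kb downstream, limma called 3 of the 19 bins of ITPRID2 as higher and 44 of the 380 bins of all viewpoints. For dTAG+I-BET against DMSO, 3 of the 98 bins passed in limma, all higher (4.9% of the 1960 bins passed, 3.47% as higher and 1.43% as lower), and they were adjacent, from 20 to 50 kb downstream of the start. The first 2 cover the 3′ part of the gene, whose end lies 39.0 kb from the start, and the third lies beyond it. From 20 to 30 kb the signal was 1675, 1804 and 1764 per kb in dTAG+I-BET libraries, against 1185, 1262 and 944 in DMSO libraries (log2 ratio 0.64, SE 0.16, limma adjusted p = 0.0277). From 30 to 40 kb it was 1140.4, 1120.2 and 1286 in dTAG+I-BET libraries, against 744, 803 and 754 in DMSO libraries (0.62, SE 0.16, limma adjusted p = 0.0292). From 40 to 50 kb it was 1036, 1243 and 1157 in dTAG+I-BET libraries, against 728, 673 and 633 in DMSO libraries (0.75, SE 0.16, limma adjusted p = 0.0103). In all 3 bins each dTAG+I-BET library exceeded each DMSO library. The dTAG libraries had 1401, 1320.3 and 1044 per kb from 20 to 30 kb and 974, 913 and 661 from 40 to 50 kb, replicates 1 and 2 above all DMSO libraries and replicate 3 among them.

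Between 10 and 200 kb, 18 of 19 downstream bins were above 0 in dTAG+I-BET against DMSO cells (76.6% over all viewpoints), and all dTAG+I-BET libraries exceeded all DMSO libraries in 11 of these 19. Over the 380 such bins of all viewpoints, 40% had the groups apart in this direction. Over all 98 bins of ITPRID2 the counts were 14 lower and 13 higher, where the shares over all viewpoints were 11.2% and 15.1%. Upstream the median log2 ratio over the 19 bins was -0.02, with 13 below 0 (55.0% over all viewpoints) and 6 above. Other settings also called bins as lower. The bin from 170 to 180 kb upstream had 403, 449 and 348 per kb in dTAG+I-BET libraries, against 583, 542 and 490.5 in DMSO libraries, with a log2 ratio of -0.43 (limma adjusted p = 0.209), and was called by edgeR, DESeq2 and limma on rescaled signal or without dTAG replicate 3. The bin from 180 to 190 kb upstream had a log2 ratio of -0.47 (limma adjusted p = 0.216) and was called by edgeR and on rescaled signal. The number of bins called at ITPRID2 ran from 0 to 8 when single libraries were left out: 8 without dTAG replicate 3, 3 without either of the other dTAG libraries, and 0 or 1 without any single DMSO or dTAG+I-BET library. Without dTAG replicate 3, 199 of the 1960 bins of all viewpoints were called, against 96 with all libraries.

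**Figure D4:**
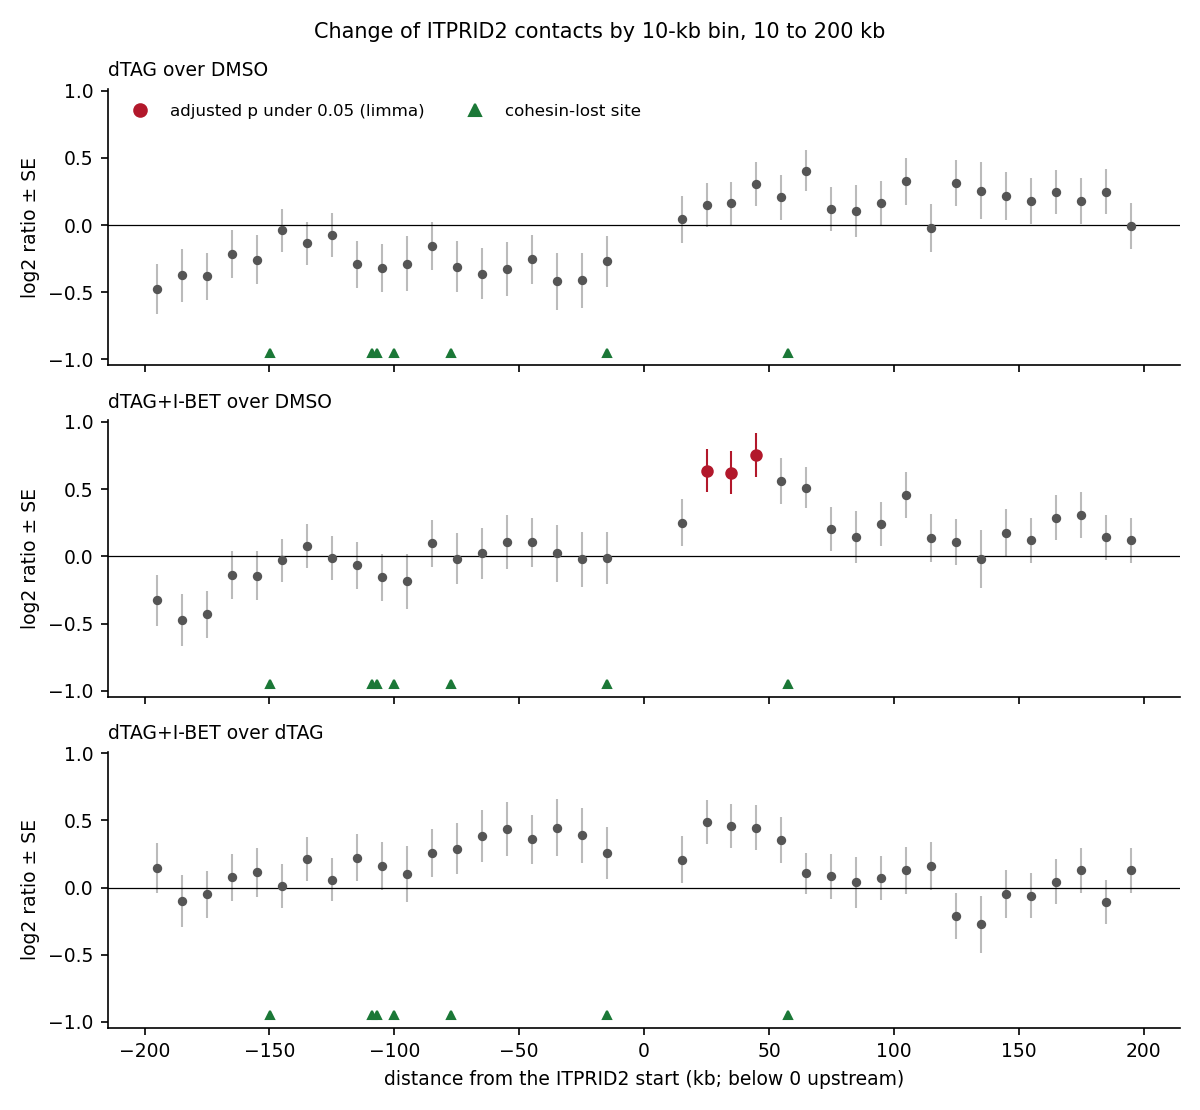
Log2 ratio (± SE) of ITPRID2 signal in 10-kb bins between 10 and 200 kb on both sides of the start, for dTAG over DMSO, dTAG+I-BET over DMSO and dTAG+I-BET over dTAG. Red points have a limma adjusted p under 0.05 and lie from 20 to 50 kb downstream in dTAG+I-BET over DMSO only; triangles mark cohesin-lost sites.

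The cohesin-lost sites were grouped in windows of 5 kb on either side, which gave 5 windows, and sites less than 50 kb apart were joined into a cluster of 5 sites on the upstream side (chr2:181741754-181814488). The cluster did not differ detectably between groups. Its signal was 1328, 1374 and 1412 per kb in dTAG+I-BET libraries and 1449.6, 1389 and 937 in dTAG libraries, against 1549, 1501 and 1241 in DMSO libraries. The dTAG libraries overlapped DMSO, and replicate 3 was the lowest of the 9. The log2 ratio was -0.20 for dTAG against DMSO (95% interval -0.58 to 0.17, limma adjusted p = 0.556) and -0.05 for dTAG+I-BET against DMSO (-0.43 to 0.32, limma adjusted p = 0.917). Without dTAG replicate 3 the first of these was -0.0046.

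Relative to the rest of the upstream side between 10 and 200 kb, the cluster was higher by 0.32, 0.33 and 0.37 in dTAG+I-BET libraries, by 0.42, 0.44 and 0.62 in dTAG libraries and by 0.37, 0.43 and 0.32 in DMSO libraries (log2). This measure was chosen once the data were known. The treated groups overlapped DMSO (exact permutation p = 0.2 for dTAG and 0.6 for dTAG+I-BET, in a test that cannot go below 0.1). All dTAG+I-BET libraries were below all dTAG libraries by this measure (difference -0.15, exact permutation p = 0.1, the smallest possible).

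The 4 upstream windows overlapped between groups in both comparisons with DMSO. The window at 104.6 kb, with 3 sites, had 1500.4, 1457 and 1543 per kb in dTAG+I-BET libraries and 1582, 1503 and 1006 in dTAG libraries, against 1928, 1762 and 1344 in DMSO libraries. DMSO replicate 3 lay below all of the others but dTAG replicate 3. The log2 ratio was -0.31 for dTAG against DMSO (95% interval -0.72 to 0.10, limma adjusted p = 0.461) and -0.15 for dTAG+I-BET against DMSO (-0.56 to 0.27, 0.717). For the windows around the sites at 149.8, 77.4 and 14.9 kb upstream, the dTAG ratios were -0.10, -0.25 and -0.27 and the dTAG+I-BET ratios -0.05, 0.01 and -0.01, none past the test.

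The downstream window, 57.6 kb from the start, went the other way. It had 948, 1035 and 1053 per kb in dTAG+I-BET libraries and 879.8, 809 and 696 in dTAG libraries, against 731, 699 and 571 in DMSO libraries. The dTAG+I-BET libraries lay above all DMSO and dTAG libraries, and dTAG replicate 3 overlapped DMSO. The log2 ratio was 0.61 for dTAG+I-BET against DMSO (SE 0.13, limma adjusted p = 0.0219) and 0.25 for dTAG against DMSO (SE 0.13, limma adjusted p = 0.388). This was 1 of 2 regions called among the 19 regions of ITPRID2, both higher in dTAG+I-BET, where 5.07% of the 473 regions of all viewpoints were called (2.54% as higher). Without any single DMSO or dTAG+I-BET library neither was called, 1 was without dTAG replicate 2, and 5 regions were without dTAG replicate 3. In that last run 94 of the 473 regions of all viewpoints were called. For dTAG against DMSO 0 of 19 were called in limma (3.59% of 473, 2.11% as lower and 1.48% as higher). An unadjusted limma p under 0.05 was found in 1 of the 19 and in 78 of the 473. edgeR and DESeq2 called 4 each at ITPRID2, all higher, and 63 and 67 of the 473.

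On the single DpnII fragment that holds the centre of a site, the counts are low and the spread wide. The fragment of 748 bases at the downstream site (chr2:181948776-181949523) had a signal of 963, 791 and 1187 in dTAG+I-BET libraries and 678, 677 and 574 in dTAG libraries, against 672, 808 and 596 in DMSO libraries. On this fragment dTAG+I-BET replicate 2 overlapped DMSO. The fragment of 1141 bases at the site 107.0 kb upstream had 1597, 1199 and 1456 in dTAG+I-BET libraries and 1440.4, 1232 and 1257 in dTAG libraries, against 1908, 1649 and 1146 in DMSO libraries, and all groups overlapped.

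The second region called was the start of PPP1R1C, a gene for an inhibitor subunit of protein phosphatase 1 whose start lies 62.5 kb downstream. Its window of 5 kb on either side overlaps the cohesin-lost window at 57.6 kb, so the 2 calls share fragments. PPP1R1C had 801, 929 and 925 per kb in dTAG+I-BET libraries and 869.8, 774 and 645 in dTAG libraries, against 637, 633 and 578 in DMSO libraries. Every treated library was above every DMSO library. The log2 ratio was 0.52 for dTAG+I-BET (SE 0.13, limma adjusted p = 0.0462) and 0.30 for dTAG (SE 0.13, limma adjusted p = 0.271). Without dTAG replicate 3 the dTAG ratio was 0.42 (limma adjusted p = 0.0334). Over the 19 regions, treated libraries lay wholly below DMSO in 4 and wholly above in 1 for dTAG (14.6% and 5.71% of all regions), and in 3 and 6 for dTAG+I-BET (16.1% and 18% of all).

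The ITPRID2 gene body beyond 10 kb from the start had 1830.2, 1911 and 2003 per kb in dTAG+I-BET libraries and 1766, 1639 and 1188 in dTAG libraries, against 1477, 1484 and 1286 in DMSO libraries. All dTAG+I-BET libraries were above all others, and dTAG replicate 3 was the lowest of the 9. The log2 ratio was 0.44 for dTAG+I-BET against DMSO (95% interval 0.10 to 0.78, limma adjusted p = 0.124) and 0.10 for dTAG against DMSO (-0.24 to 0.43, 0.754). Without dTAG replicate 3, which also lowers the pooled spread, they were 0.44 (limma adjusted p = 0.00364) and 0.27 (0.076).

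The other protein-coding genes with a start within 500 kb lie more than 200 kb upstream. CERKL, a ceramide kinase-like gene linked to retinal dystrophy, starts 211.1 kb away and NEUROD1, a transcription factor gene of neurons and endocrine cells, 210.9 kb away, so that their windows share almost all fragments. NEUROD1 had 203, 166 and 167 per kb in dTAG+I-BET libraries and 186, 189 and 180.3 in dTAG libraries, against 220.3, 212 and 225 in DMSO libraries. All treated libraries were below all DMSO libraries, and the log2 ratios of -0.30 (95% interval -0.57 to -0.03, limma adjusted p = 0.171) and -0.24 (-0.51 to 0.03, 0.379) did not pass the test. CERKL gave -0.29 and -0.24. ITGA4, the integrin alpha 4 gene 434.5 kb upstream, overlapped between all groups at 81.1 to 86.8 per kb in dTAG+I-BET libraries, 69.4 to 87.5 in dTAG libraries and 70.7 to 104.8 in DMSO libraries, from only 31 to 44 interactions per library.

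**Figure D5:**
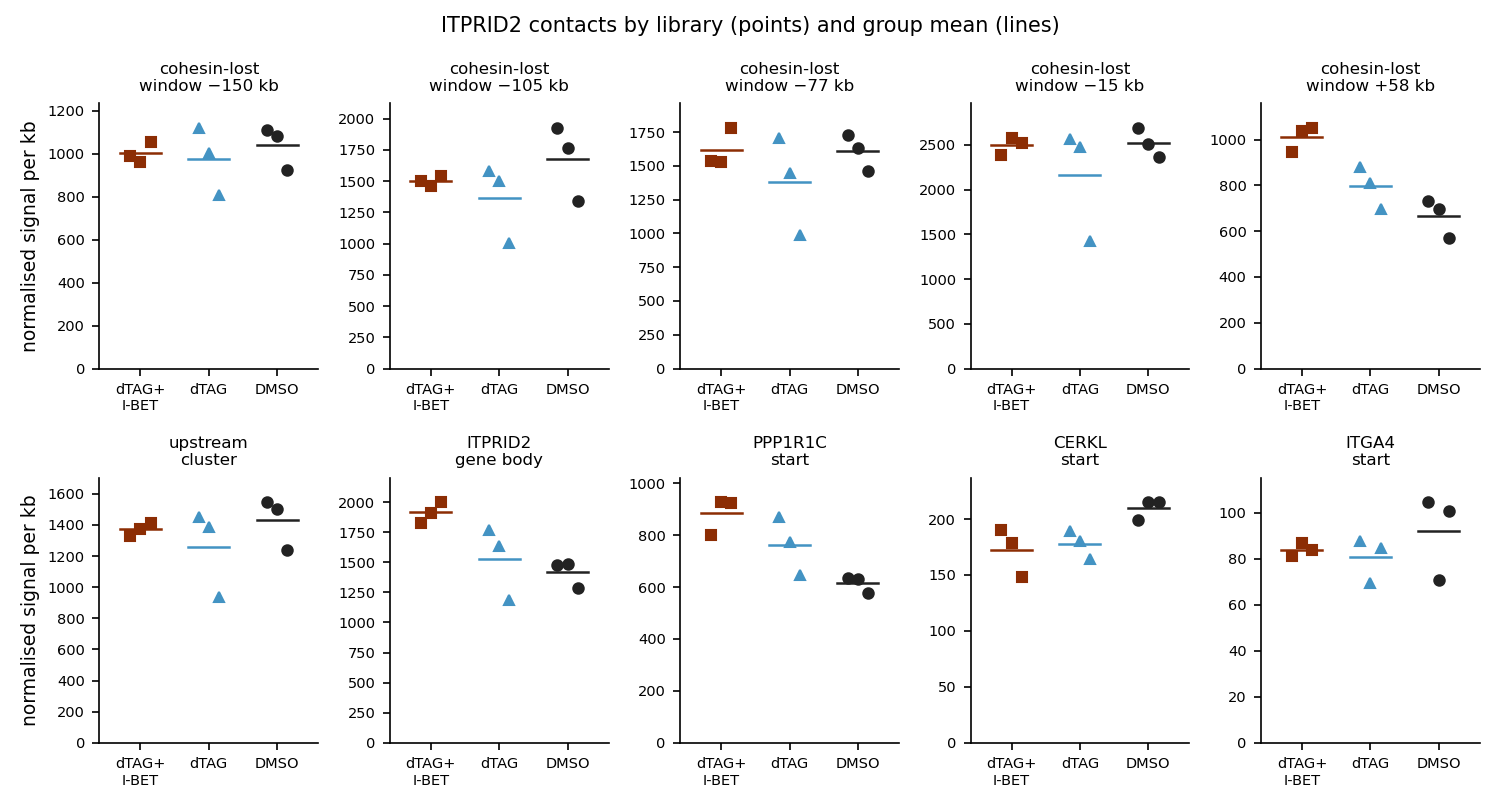
Normalised signal per kb in 10 regions contacted by the ITPRID2 promoter, one point per library and a line for the group mean (n = 3). In the window 57.6 kb downstream and at the PPP1R1C start all dTAG+I-BET libraries lie above all DMSO libraries, while the upstream windows and cluster overlap; each panel has its own axis, starting at 0.

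Between the treated groups, no bin or region of ITPRID2 was called. In dTAG+I-BET against dTAG cells 0 of 98 bins and 0 of 19 regions passed in limma, as did 0% of all 1960 bins and 473 regions, and edgeR and DESeq2 made no call either. Of all viewpoints, 122 bins and 35 regions had an unadjusted limma p under 0.05, among them 7 bins and 3 regions of ITPRID2. The lowest bin ratios were -0.39 from 450 to 460 kb and -0.35 from 490 to 500 kb upstream, and the highest 0.72 from 460 to 470 kb and 0.53 from 330 to 340 kb downstream (limma adjusted p 0.713 to 0.765). The groups were apart in 1 bin as lower and 11 as higher (3.16% and 10.7% of all bins), and in 0 regions as lower and 3 as higher (3.17% and 13.7%). The log2 ratio of upstream over downstream differed by 0.03 (95% interval -0.15 to 0.20, limma adjusted p = 0.882). In the window 57.6 kb downstream and over the gene body all dTAG+I-BET libraries were above all dTAG libraries, with log2 ratios of 0.35 (limma adjusted p = 0.632) and 0.34 (0.64), and 0.26 and 0.17 without dTAG replicate 3. The 3 comparisons share libraries, so they are not independent of each other.

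Contacts next to the promoter overlapped between the groups. Within 10 kb of the start lay 6.58, 6.77 and 7.19% of the chromosome 2 signal in dTAG+I-BET libraries and 7.24, 6.65 and 5.74% in dTAG libraries, against 6.59, 6.36 and 6.20% in DMSO libraries. The mean differences from DMSO were 0.465 percentage points for dTAG+I-BET (exact permutation p = 0.2) and 0.163 for dTAG (p = 0.7), in a test that cannot go below 0.1. Relative to the rest of the downstream side between 10 and 200 kb, the gene body was higher by 1.96, 1.90 and 1.99 in dTAG+I-BET libraries, 1.82, 1.68 and 1.69 in dTAG libraries and 1.92, 1.89 and 1.74 in DMSO libraries (log2), again a measure chosen once the data were known. By this measure all dTAG+I-BET libraries were above all dTAG libraries (difference 0.22, exact permutation p = 0.1, the smallest possible), and both treated groups overlapped DMSO.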

How the data were processed

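Capture-C libraries of HCT-116 MED14-dTAG cells were analysed as deposited. The authors digested chromatin with DpnII, enriched the promoters and, with CapCruncher (version 1) on hg38, deposited 1 table per viewpoint of normalised signal per DpnII fragment. Sequencing data were demultiplexed with bcl2fastq 2.17 per the labels. Within a viewpoint and library every signal value was a whole multiple of the value of 1 interaction (100% of 102057804 values, tolerance 0.01), so whole reads (interactions) were recovered: edgeR on them called 111, 180 and 0 of 1960 bins in dTAG against DMSO, dTAG+I-BET against DMSO and dTAG+I-BET against dTAG. No column was left unmapped (0). GATC was found within a few bases of the start of all 2153 fragments, which fits hg38.

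Fragments were summed into 10-kb bins and regions between 10 and 500 kb of the start. Bins under a mean of 2 per kb were dropped. log2(signal per kb + 1) was fitted with limma 3.58.1 (trend, all 9 libraries, no replicate block) over all 20 viewpoints, with Benjamini-Hochberg adjustment. Upstream over downstream ratios were fitted likewise without the trend. edgeR 4.0.16 and DESeq2 1.42.0 on recovered interactions were alternatives, in R 4.3.3. Other steps ran in matplotlib 3.10.9, scipy 1.17.1, pandas 2.3.3 and numpy 2.4.6 under Python 3.11.15. The scripts were tested on simulated data. The 3 libraries of a group differed by more than sampling noise (chi-square per degree of freedom 1.33 to 2.88 over bins). Intervals cover the spread between libraries.

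Named were ITPRID2, its coding neighbours, all cohesin-lost windows and bands, the 3 bins per side highest over other viewpoints and the 3 viewpoints most alike. Called bins of a comparison were all named, up to 10, and where none was called the 2 lowest and 2 highest bins were. Members and lists were chosen with earlier results of these data known. Cohesin-lost sites are positions from the study's list, called by the study in the same line. For DDIT4 the annotated start was kept although its highest fragment lies far away on its chromosome.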

Additional observations from a re-analysis of the deposited data

How the results depend on the processing

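The lower upstream over downstream ratio of ITPRID2 in dTAG and dTAG+I-BET against DMSO cells kept its direction and its side of the threshold under every alternative that was run, with log2 differences from -0.49 to -0.36. The counts of called bins and regions depended on the settings. For dTAG against DMSO, edgeR, DESeq2 and signal rescaled to the total from 10 to 1000 kb gave 2 bins and 4 regions each, in place of 0 and 0. Over all viewpoints they gave 111, 65 and 84 bins and 63, 67 and 45 regions, in place of 29 and 17. For dTAG+I-BET against DMSO, in place of 3 bins and 2 regions, edgeR gave 8 and 6, DESeq2 6 and 6, rescaling 7 and 5, and a fit of these 2 groups only 5 and 5. Of these, 2 bins and 1 region were lower with edgeR, 1 and 1 with DESeq2 and 2 and 0 after rescaling, the region being the band from 200 to 500 kb upstream (-0.24 with edgeR and -0.22 with DESeq2). All others were higher. Over the 1960 bins and 473 regions of all viewpoints, dTAG+I-BET against DMSO gave 180 and 93 calls with edgeR and 142 and 90 with DESeq2. It gave 136 and 77 after rescaling and 167 and 83 with the 2 groups only, in place of 96 and 24. Bins of 5 kb and of 25 kb gave 1 call each, windows padded by 2.5 kb gave 0 regions and by 10 kb 1 region.

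Replicate numbers showed no clear pairing of the libraries. Over 1960 bins the deviations of same-numbered libraries correlated by -0.06 to 0.23 (9 pairs) and those of other numbers by -0.23 to 0.16 (18 pairs). Between DMSO and dTAG the same-numbered libraries correlated by 0.03, 0.11 and 0.23 and the others by -0.23 to 0.16, so pairing there remains undecided. With the replicate block the counts for dTAG+I-BET against DMSO were 5 bins and 1 region, and for dTAG against DMSO 0 and 0. Over all viewpoints the block gave 70 called bins for dTAG against DMSO in place of 29, and 115 in place of 96 for dTAG+I-BET against DMSO.

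The values that changed sign were small apart from the share within 10 kb, and none of the limma values among them was called. With 10 to 500 kb in the ratio, they were for dTAG+I-BET against dTAG -0.0032 (ratio minus other viewpoints). With DESeq2, they were for dTAG+I-BET against dTAG -0.10 (downstream 100 to 200 kb), -0.055 (upstream 200 to 500 kb), -0.054 (window 150 kb upstream), -0.027 (ITGA4). With edgeR, they were for dTAG+I-BET against DMSO -0.013 (upstream 10 to 50 kb), -0.017 (window 77 kb upstream), and for dTAG+I-BET against dTAG -0.11 (downstream 100 to 200 kb), -0.062 (upstream 200 to 500 kb), -0.060 (window 150 kb upstream), -0.019 (ITGA4). After rescaling, they were for dTAG against DMSO 0.0088 (window 150 kb upstream), and for dTAG+I-BET against DMSO -0.038 (upstream 10 to 50 kb), -0.044 (window 77 kb upstream), and for dTAG+I-BET against dTAG -0.0094 (cohesin-lost cluster), -0.0014 (downstream 50 to 100 kb), -0.043 (upstream 100 to 200 kb), -0.16 (downstream 100 to 200 kb), -0.11 (upstream 200 to 500 kb), -0.051 (downstream 200 to 500 kb), -0.11 (window 150 kb upstream), -0.094 (ITGA4). Taken as a share of signal within 500 kb, the share within 10 kb gave -1.002 for dTAG+I-BET against dTAG, in place of 0.303 (exact permutation p = 0.2). With windows padded by 2.5 kb, they were for dTAG against DMSO 0.025 (window 150 kb upstream), and for dTAG+I-BET against DMSO 0.072 (window 150 kb upstream), -0.079 (window 77 kb upstream), 0.035 (window 15 kb upstream). Taken within 5 kb, they were for dTAG+I-BET against dTAG -0.019 (share within 10 kb).

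Leaving out each library in turn gave 0 to 2 called bins and 0 to 3 called regions for dTAG against DMSO, and 0 to 8 bins and 0 to 5 regions for dTAG+I-BET against DMSO. The highest counts came without dTAG replicate 3. Over all viewpoints that run called 83 bins and 41 regions for dTAG and 199 bins and 94 regions for dTAG+I-BET against DMSO. When each library was left out in turn, other values changed sign. For dTAG against DMSO the ranges were -0.018 to 0.27 (gene body), -0.19 to 0.57 (share within 10 kb), -0.42 to 0.0031 (window 15 kb upstream), -0.20 to 0.034 (window 150 kb upstream). For dTAG+I-BET against DMSO the ranges were -0.028 to 0.036 (downstream 200 to 500 kb), -0.15 to 0.0065 (cohesin-lost cluster), -0.036 to 0.072 (upstream 10 to 50 kb), -0.12 to 0.065 (upstream 50 to 100 kb), -0.060 to 0.036 (window 15 kb upstream), -0.13 to 0.00011 (window 150 kb upstream), -0.064 to 0.063 (window 77 kb upstream). For dTAG+I-BET against dTAG the ranges were -0.12 to 0.053 (CERKL), -0.039 to 0.13 (ITGA4), -0.14 to 0.098 (downstream 100 to 200 kb), -0.050 to 0.26 (cohesin-lost cluster), -0.039 to 0.058 (ratio minus other viewpoints), -0.14 to 0.060 (upstream over downstream 10 to 50 kb), -0.10 to 0.65 (share within 10 kb), -0.059 to 0.22 (upstream 100 to 200 kb), -0.048 to 0.073 (upstream over downstream), -0.040 to 0.29 (window with 3 sites), -0.016 to 0.41 (window 15 kb upstream), -0.084 to 0.15 (window 150 kb upstream). Values are log2 differences, except shares within 10 kb, which are percentage points. The cause of these changes was not tested.

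Precision was limited by 3 libraries a group, for which an exact permutation test cannot go below p = 0.1, and by counts: the sampling error of a region in 1 library was 0.02 to 0.25 on the log2 scale, the highest at ITGA4. Values that include dTAG replicate 3 rest in part on a library that stood apart. The sites came from cohesin maps of the same line. No group received I-BET without MED14 depletion, so an effect of the inhibitor alone was not measured. Signal is a share of each library's total, so absolute contact frequency was not measured.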

Other observations

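Contacts of the ITPRID2 promoter outside the megabase were also counted. Beyond 500 kb on chromosome 2 lay 50.2, 48.6 and 47.6% of its signal on that chromosome in dTAG+I-BET libraries and 48.2, 49.8 and 63.8% in dTAG libraries, against 48.6 to 54.7% in DMSO libraries. Ligation to other chromosomes took 31.6, 32.5 and 31.0% of all interactions in dTAG+I-BET libraries and 29.7, 30.1 and 34.5% in dTAG libraries, against 33.4, 31.8 and 30.9% in DMSO libraries. In both measures dTAG replicate 3 was the highest of the 9 libraries.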
